A study of Mus musculus with 6 samples.

Results

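In RAW264.7 cells, a mouse line with the features of macrophages, 50 genes had no read in any of the 3 libraries treated with DMSO and had reads in each of the 3 libraries treated with SKI-II. They were the rows of the raw count table with 0 counts in every DMSO library, at least 2 counts in every SKI-II library and at least 15 counts over the 3 SKI-II libraries. The count table holds 49315 genes, of which the counts of the rule take 0.103%. Nqo1 and Il6 were left out by name, although only Nqo1, with 4, 48 and 9 counts, met the counts of the rule, because Il6 had 4, 0 and 8. The genes were chosen on the counts of both groups, so their counts and fold limits below are a description, with no test. In bulk RNA, many cells with little of a transcript and few cells with much of it cannot be told apart.

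The small molecule SKI-II is best known for inhibiting sphingosine kinase. The SKI-II cells had received 4 μg/mL of the compound and the DMSO cells the same amount of the vehicle alone, both for 24 h, with no other treatment. The 6 libraries are poly(A)-selected RNA from 1 cell line. For the PCR assay whose treatment and RNA extraction they share, the study's methods speak of 3 biological replicates, but no label ties a library to a culture of its own. They held 12495957 to 20050677 counts each.

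A gene with no reads in a culture of 1 cell type is usually one that belongs to another tissue, whose promoter is closed in these cells by DNA methylation, by repressive marks on the histones, or by the lack of the factors that drive it. Inner ear matrix, liver enzymes and most odorant receptors are better known from other tissues than from macrophages. At this depth a count of 0 means only that the transcript was rare. Over the 3 DMSO libraries it allows up to 3 counts, so each fold below is a lower limit, the summed SKI-II counts set against 3 counts over the DMSO group after TMM scaling of the library sizes. The limits bound the DMSO zero alone and take the SKI-II sum as observed. With the lower bound of the exact 95% Poisson interval of that sum in its place, a choice made after seeing the data, they were 2.5-fold to 191-fold, with a median of 4.94-fold. Both cover counting error only.

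Of the 49315 genes, 26355 had no count in any library and 28901 had none in the DMSO libraries. Among the latter, 2546 had at least 1 count with SKI-II, and 88 had at least 2 in each SKI-II library. The minimum of 15 counts left 51 genes, or 0.222% of the 22960 genes with a count in any library. The same rule turned round, with 0 counts in every SKI-II library, found 15 genes, or 0.0653%. Of the 50 genes, 35 code for proteins, and the other 15 are RNA genes and pseudogenes. Just inside the minimum were Dnaic2 (5, 3 and 7 counts in SKI-II replicates 1, 2 and 3) and Gm11998 (7, 5 and 3), with 15 counts each. Just outside it, with 14 counts, were 5 genes, Artn, a neurotrophic factor (5, 7 and 2), Pth2, a neuropeptide (5, 2 and 7), 1700028I16Rik (3, 5 and 6), and Gm12551 and Gm19619 (both 3, 6 and 5). Another 5 had 13 counts, the dopamine receptor gene Drd2 (5, 2 and 6), the nicotinic receptor gene Chrnb4 (6, 4 and 3), the fucosyltransferase gene Fut4 (2, 8 and 3), the meiosis gene Sycp2 (4, 6 and 3) and Gm20716 (4, 5 and 4). Mir23b (15, 10 and 0), Muc19 (12, 7 and 1) and Skint7 (16, 2 and 0) were outside because of SKI-II replicate 3 alone.

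Start-site sequences were available for 32 of the 50 genes, 36 in all, each with 250 bases before and 50 after the RefSeq start. They are shown for the 3 genes with the largest fold limits among these 32. Coordinates are in GRCm38.p6, the letters run 5′ to 3′ on the gene's strand, and capitals mark words among the 9 that were searched on both strands. The words were the antioxidant response element TGACNNNGC, the AP-1 site TGANTCA, the cAMP response element TGACGTCA, the C/EBP-ATF element TGATGNAA, the E-box CACGTG, the heat shock word GAANNTTC, the hypoxia word ACGTGC, the NF-kB word GGANTTTCC and the TATA box TATAAA.
Sspo (chr6:48447924-48448223, plus strand): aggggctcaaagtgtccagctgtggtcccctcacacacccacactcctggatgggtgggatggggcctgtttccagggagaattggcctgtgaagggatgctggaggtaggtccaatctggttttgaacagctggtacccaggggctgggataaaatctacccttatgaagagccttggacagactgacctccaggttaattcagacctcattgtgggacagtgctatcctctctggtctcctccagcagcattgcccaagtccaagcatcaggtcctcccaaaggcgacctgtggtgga
Bpifc (chr10:86011811-86012110, minus strand): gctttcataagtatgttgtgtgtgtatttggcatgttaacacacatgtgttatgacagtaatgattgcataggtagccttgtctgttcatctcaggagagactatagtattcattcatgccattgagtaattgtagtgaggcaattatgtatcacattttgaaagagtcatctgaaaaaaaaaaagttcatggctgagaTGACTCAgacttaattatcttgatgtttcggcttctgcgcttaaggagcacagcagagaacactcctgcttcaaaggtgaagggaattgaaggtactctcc
Taf7l (chrX:134476441-134476740, minus strand): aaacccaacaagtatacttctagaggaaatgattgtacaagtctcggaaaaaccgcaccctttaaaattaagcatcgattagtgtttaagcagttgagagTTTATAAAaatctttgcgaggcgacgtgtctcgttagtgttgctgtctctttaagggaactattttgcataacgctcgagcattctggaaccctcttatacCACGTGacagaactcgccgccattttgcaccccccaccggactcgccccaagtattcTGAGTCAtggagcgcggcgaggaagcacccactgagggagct
The Sspo sequence holds none of the 9 words, the Bpifc sequence an AP-1 site, and the Taf7l sequence an AP-1 site, an E-box and a pair of overlapping TATA boxes on opposite strands.

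The AP-1 word, read by Fos and Jun proteins, was in 5 of the 36 sequences (13.9%), against 7.81% of all 32851 start-site sequences of the table and 5.12% of those of the genes expressed highly enough to be tested here. The 5 are shown with 10 bases on either side, chosen after the counts of words were seen.
Bpifc (chr10:86011895-86011921, minus strand): atggctgagaTGACTCAgacttaatta
Taf7l (chrX:134476466-134476492, minus strand): ccaagtattcTGAGTCAtggagcgcgg
Chdh (chr14:30008984-30009010, plus strand): ggggtgcgaaTGACTCAggcccgggag
Tspan15 (chr10:62231214-62231240, minus strand): gcggcgcgccTGAGTCAgtccagggag
B230209E15Rik (chr7:61615324-61615350, minus strand): tcagccagtcTGAGTCAaccacagctt
The first base of the word lay 51, 6, 12 and 13 bases before the start in Bpifc, Chdh, Tspan15 and B230209E15Rik, and at base 9 after it in Taf7l. For the next words the share in all sequences comes first and that in tested genes second. The hypoxia word was in 6 sequences (16.7%, against 5.91% and 8.06%) and the E-box, with which it can overlap, in 4 (11.1%, against 7.15% and 10.05%). The antioxidant response element was in 3 (8.33%, against 12.4% and 14.4%), those of Klf15, Lix1 and Tmem179. The TATA box was in 5 (13.9%, against 13.6% and 6.98%), and 15 of the 32 genes had none of the 9 words in any of their sequences. CpG pairs had a median of 5 in the 36 sequences, 7 in all sequences of the table and 20 in those of the tested genes. Of the 36 sequences, 19 (52.8%) had 5 CpG or fewer, against 43.6% of all and 12.6% of those of tested genes. In CpG number the start sites of these 32 genes were thus closer to those of the genome at large than to those of the genes that RAW264.7 cells use. These are descriptions of the letters in a window.

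The counts were uneven over the 50 genes. Together they took 3194 counts over the 3 SKI-II libraries, of which Sspo held 21.6%, the first 3 genes 39.2% and the first 10 genes 63.6%. The median gene had 25.5 counts and a lower limit of 7.59-fold, in a range of 4.47-fold to 206-fold. The limit was 10-fold or more in 23 genes, 20-fold or more in 11 and 50-fold or more in 3. Their levels were low for their length too. The median was 4.58 normalised counts per kb of exon in the SKI-II libraries, against 106 for the tested genes.

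**Figure D1:**
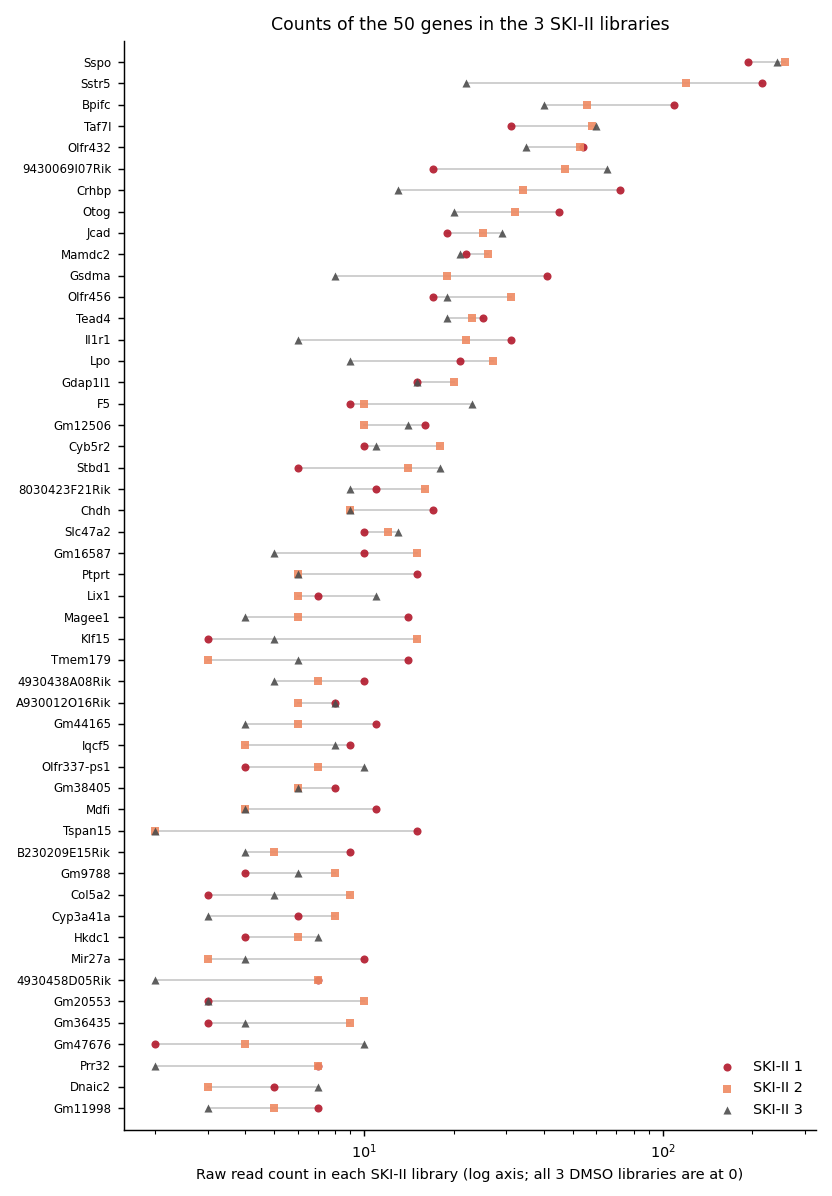
Raw read counts (log axis) of the 50 genes, 1 per line, in SKI-II replicates 1 (circles), 2 (squares) and 3 (triangles), ordered by their sum, with a grey line from the lowest to the highest. The DMSO libraries are at 0 for every gene and are not drawn. Sspo is the highest at 193 to 257 counts, and in Sstr5 the libraries lie between 22 and 215 counts.

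The 8 genes for secreted and matrix proteins held 1297 counts and had the highest median limit of the gene classes, 24.7-fold. Sspo, which codes for SCO-spondin, a very large glycoprotein that the brain secretes into the cerebrospinal fluid, had 193, 257 and 241 counts in SKI-II replicates 1, 2 and 3. It was at least 206-fold higher, and its normalised count, 219 ± 24.6 (SD, n = 3), was among the more even of the 50. Bpifc, of a family of lipid-binding proteins that includes the bactericidal permeability-increasing protein, had 109, 56 and 40 counts and was at least 61.0-fold higher (39.8-fold without replicate 1). Crhbp, which binds and holds back corticotropin-releasing hormone in the brain and pituitary, had 72, 34 and 13 counts, at least 35.4-fold (19.5-fold without replicate 1). Otog, for otogelin of the membranes that cover the sensory cells of the inner ear, had 45, 32 and 20, at least 28.9-fold. After scaling, all 4 genes were lowest in replicate 3. Bpifc, Crhbp and Otog were highest in replicate 1 and Sspo in replicate 2.

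The other secreted proteins had lower counts. Mamdc2, a matrix proteoglycan, had 22, 26 and 21 counts and Lpo, the lactoperoxidase of milk, saliva and airway fluid, had 21, 27 and 9. F5, coagulation factor V, which the liver makes, had 9, 10 and 23, and was one of the few genes highest in replicate 3. Col5a2, a chain of collagen V, had 3, 9 and 5 over 9591 exon bases, the lowest level per kb of the 50 genes at 0.557 normalised counts.

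Receptors, other membrane proteins and transporters numbered 8, with 729 counts and a median limit of 13.99-fold. Sstr5, an inhibitory receptor for somatostatin in pituitary and pancreatic cells, had 215, 120 and 22 counts, at least 106-fold higher, and at least 58.9-fold without replicate 1 and 163-fold without replicate 3. The highest library had 13.4 times the normalised counts of the lowest, the largest such ratio of the 50 genes. Olfr432, an odorant receptor, had 54, 53 and 35 counts, at least 42.3-fold higher, and Olfr456, another, had 17, 31 and 19, at least 19.9-fold. Il1r1, the receptor through which interleukin-1 signals and so a gene with a known role in inflammation, had 31, 22 and 6 counts, at least 17.6-fold (11.6-fold without replicate 1). Slc47a2, a transporter that exports organic cations, was the most even of the 50 after scaling, with 10, 12 and 13 counts. Tspan15, a tetraspanin that binds the protease ADAM10, had 15, 2 and 2, the largest coefficient of variation of the 50 genes at 128%, so that its limit of 5.66-fold became 1.66-fold without replicate 1.

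The 4 transcription regulators were Taf7l, Tead4, Klf15 and Mdfi. Taf7l, a germ cell form of a subunit of the general factor TFIID, had 31, 58 and 60 counts, at least 44.4-fold higher. Tead4, the DNA-binding partner of YAP that is needed for the first tissue of the embryo that forms the placenta, had 25, 23 and 19, at least 19.9-fold. Klf15, a factor of muscle and liver metabolism, had 3, 15 and 5, and Mdfi, which holds back myogenic factors, had 11, 4 and 4. With each SKI-II library left out in turn, the limit of Taf7l was 40.5-fold to 48.9-fold and that of Tead4 17.4-fold to 23.3-fold, so neither rested on 1 library.

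Metabolic proteins numbered 5, with limits of 5.06-fold to 11.6-fold. Cyb5r2, a cytochrome b5 reductase, had 10, 18 and 11 counts, Stbd1, which ties glycogen to membranes, had 6, 14 and 18, and Chdh, the first enzyme that turns choline into betaine, had 17, 9 and 9. Hkdc1, a hexokinase relative, had 4, 6 and 7, and Cyp3a41a, a liver cytochrome P450, had 6, 8 and 3. None of the 5 reached 50 counts.

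Of the 10 other intracellular proteins, the uncharacterised gene 9430069I07Rik had the most counts, 17, 47 and 65, at least 38.4-fold higher, and, at 572 exon bases, the highest level per kb of the 50 genes, 68.1 normalised counts. Jcad, a protein of endothelial cell junctions, had 19, 25 and 29 counts, at least 21.7-fold. Gsdma, a gasdermin of the skin and so a pore-forming protein of pyroptosis, had 41, 19 and 8, at least 20.2-fold (11.2-fold without replicate 1). Gdap1l1, of neurons, had 15, 20 and 15, and Dnaic2, a dynein chain of motile cilia, 5, 3 and 7. Jcad and Gdap1l1 were even over the libraries, and Gsdma was concentrated in replicate 1.

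By the tissue in which the product is best known, brain and sense organs came first with 9 genes and 1240 counts (Sspo, Olfr432, Crhbp, Otog, Olfr456, Gdap1l1, Ptprt, Magee1 and Tmem179). Connective tissue, muscle and vessels followed with 5 (Jcad, Mamdc2, Stbd1, Klf15 and Col5a2), and the embryo (Tead4, Lix1 and Mdfi), liver and kidney (F5, Chdh and Cyp3a41a) and surface epithelia and glands (Gsdma, Lpo and Dnaic2) had 3 each. The germ line had Taf7l and Iqcf5, the endocrine glands Sstr5, and Il1r1 is used by many tissues. For 8 protein-coding genes no tissue was assigned. The classes and tissues were given by hand from general knowledge, 1 to a gene, after the names were known. No single tissue accounted for most of the genes, although brain and sense organs held 38.8% of the counts, most of these on Sspo.

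**Figure D2:**
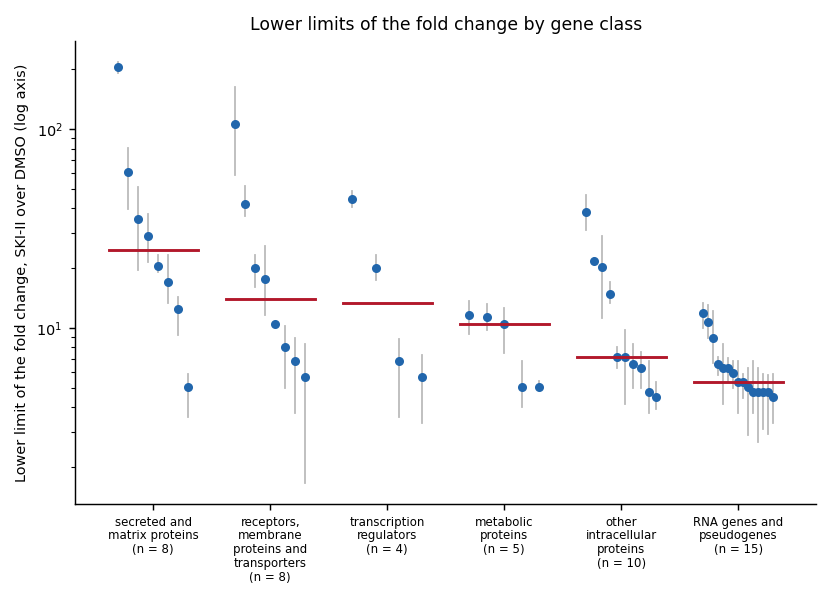
Lower limit of the fold change (log axis, SKI-II over DMSO) of each of the 50 genes by gene class. Points give the limit from all 3 SKI-II libraries, grey bars the range when 1 of these is left out, and red lines the median of the class. Secreted and matrix proteins have the highest median, 24.7-fold, and RNA genes and pseudogenes the lowest, 5.36-fold.

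The 15 RNA genes and pseudogenes had 322 counts and a median limit of 5.36-fold, against 11.6-fold for the 35 protein-coding genes. Gm12506 (16, 10 and 14 counts) and 8030423F21Rik (11, 16 and 9), both long intergenic RNAs, had the most, with limits of 11.9-fold and 10.7-fold. Gm16587, antisense to part of Selp, had 10, 15 and 5. Olfr337-ps1, an odorant receptor pseudogene with 4, 7 and 10 counts, is the third odorant receptor locus among the 50.

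Mir27a, the gene of a microRNA known in macrophage and fat cell biology, lies at chr8:84208672-84208758 on the plus strand, between Mir23a and Mir24-2. It had 10, 3 and 4 counts, Mir23a 5, 2 and 2, and Mir24-2 2, 0 and 1, with 0 in every DMSO library for all 3. The libraries hold poly(A) RNA, so these reads came from longer transcripts that cross the hairpins and say nothing of the mature microRNAs. A sister cluster on chromosome 13 holds Mir23b, with 0 in DMSO and 15, 10 and 0 counts with SKI-II, Mir27b, with 1, 0 and 0 and then 11, 9 and 1, and Mir24-1, with 0 in every library. Mir23b was chosen after its values were seen. SKI-II replicate 1 had the most counts in each of the 5 hairpin genes with any, and replicate 3 had 1 or none in the chromosome 13 pair. The mature sequences from RefSeq show what these clusters share, with the seed, bases 2 to 8, in capitals.
miR-27a-3p: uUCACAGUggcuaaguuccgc
miR-27b-3p: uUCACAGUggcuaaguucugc
miR-23a-3p: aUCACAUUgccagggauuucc
miR-24-3p: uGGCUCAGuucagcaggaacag
The seed UCACAGU is the same in miR-27a-3p and miR-27b-3p, and miR-24-3p comes from both clusters. Around the Mir27a cluster, the long intergenic RNA Gm26532, which begins 162 bases beyond Mir27a, had 26, 10 and 7 counts with DMSO and 42, 53 and 24 with SKI-II (log2 fold change 1.36 ± 0.53 SE, adjusted p = 0.0666 in edgeR's quasi-likelihood test). It did not pass 0.05 in this fit and did in 4 of 12 alternatives (adjusted p of 0.00844 to 0.205).

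The 3 SKI-II libraries did not carry the 50 genes equally. After scaling, 25 genes were highest in replicate 1, 18 in replicate 2 and 7 in replicate 3, and 32 were lowest in replicate 3. Among 5044 other genes with SKI-II counts in the same range, 35.3%, 34.2% and 30.5% were highest in replicates 1, 2 and 3. The counts of the 50 genes came to 85.5, 66.7 and 43.0 CPM (counts as a share of the library's total) in these libraries. Without Sspo, Sstr5 and Bpifc, the normalised sums kept this order, 781, 652 and 456. The coefficient of variation over the 3 libraries had a median of 51.1% in the 50 genes and 26.0% in the 5044 others. The others share only the outer range of 15 to 691 summed counts and were not matched in level. Counting error widens the spread at low counts, and the median of the 50 genes was 25.5 counts. Its part in the difference was not tested. One library held at least 60% of the counts in 8 genes. These were Sstr5, Crhbp, Gsdma, Tmem179 (14, 3 and 6 counts) and Tspan15 in replicate 1, Klf15 and Gm20553 (3, 10 and 3) in replicate 2, and Gm47676 (2, 4 and 10) in replicate 3. The median limit was 7.26-fold without replicate 1, 8.45-fold without replicate 2 and 9.48-fold without replicate 3.

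**Figure D3:**
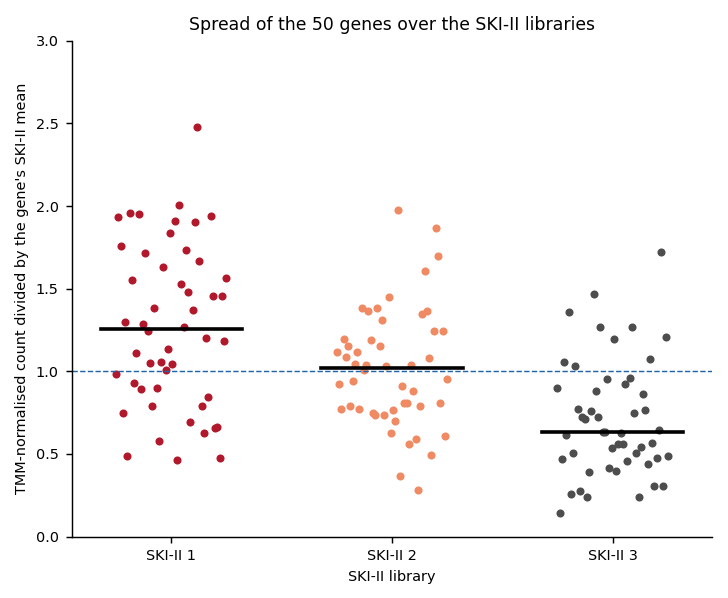
TMM-normalised count of each of the 50 genes in each SKI-II library, divided by that gene's mean over the 3 libraries, so that 1 (dashed) is an equal share. Black bars are medians, at 1.26, 1.02 and 0.630 in replicates 1, 2 and 3, and most points of replicate 3 lie below 1.

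With replicate 1 left out, the rule (its minimum of 15 counts kept) found 27 genes, all of them among the 50, and with replicate 3 left out 35 genes, of which 32 were among the 50. With fewer DMSO libraries more genes passed, 82, 66 and 79 without DMSO replicates 1, 2 and 3, and these included the 50. At most 1 count over the DMSO libraries in place of 0 gave 93 genes. Among the 43 added were Tarm1, an activating receptor of myeloid cells, with 0, 0 and 1 counts with DMSO and 424, 382 and 293 with SKI-II, and Ncam1, a neural adhesion molecule, with 0, 1 and 0 and then 42, 23 and 10. Both were named after their values were seen. With Tarm1 among them, Sspo would not have been the highest.

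In edgeR's quasi-likelihood test, which fits all genes of enough counts, 14 of the 50 genes passed the filter on low counts, and each of the 14 had an adjusted p below 0.05, against a background of 18.4% of the 12274 tested genes called higher. DESeq2, and edgeR without the filter, gave all 50 an adjusted p below 0.05, so the number called depends on the filter and the tool. The rule used the same contrast, so these calls add nothing to it. Those that passed the filter were Sspo, Sstr5, Bpifc, Taf7l, Olfr432, 9430069I07Rik, Crhbp, Otog, Jcad, Mamdc2, Olfr456, Tead4, Gdap1l1 and Slc47a2. Gsdma, with 68 counts, did not pass and Slc47a2, with 35, did, because the filter asks for a level in each of 3 libraries.

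Reads on a gene that overlaps another cannot always be assigned, and the strandedness of the counting is not given in the sources used here. Of the 50 genes, 20 overlapped another annotated gene, 10 a gene with counts, and 7 shared exon bases with a gene with counts. For 4930458D05Rik, an antisense RNA with 7, 7 and 2 counts, 1052 exon bases were shared with Gpat3, an enzyme of triglyceride synthesis. Gpat3 had 68, 44 and 78 counts with DMSO and 851, 609 and 622 with SKI-II, and rose by 3.35 ± 0.26 (log2, SE, adjusted p = 2.1e-05, edgeR). Gm44165 (11, 6 and 4 counts) lay inside Tarm1 on the same strand with no exon base in common. Tarm1 rose with a fitted log2 fold change of 9.55 that rests on 1 DMSO count and is 11.48 without the library that holds it, DMSO replicate 3 (adjusted p = 7.23e-06, edgeR). Gm47676 lay likewise inside Thsd4, with 0, 0 and 2 and then 5, 9 and 27 counts. In these 3 cases the covering gene had more counts with SKI-II and more than the gene inside it, so reads of the covering transcript cannot be told apart from reads of its own.

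Other overlaps went differently. A930012O16Rik (8, 6 and 8 counts) shared 487 exon bases with Gpd2, which had 1264, 1017 and 1248 counts with DMSO and 569, 618 and 683 with SKI-II, and fell (log2 fold change -1.07 ± 0.12 SE, adjusted p = 0.000119, edgeR). Chdh shared 589 with Cacna1d, at 276, 212 and 332 and then 128, 150 and 259, which also fell (-0.79 ± 0.21, adjusted p = 0.0128, edgeR, but 0.0582 without SKI-II replicate 2). For both, the overlapping gene on the other strand had fewer counts with SKI-II. Cyb5r2 shared 129 bases with Ppfibp2 (log2 fold change 1.23 ± 0.53, adjusted p = 0.0912, edgeR), Gm38405 shared 251 with Xrra1 (0.89 ± 0.50, adjusted p = 0.183, edgeR), and 9430069I07Rik shared 70 with Matn2, a matrix protein gene with 0, 0 and 1 and then 4, 2 and 7 counts. Among the 14 genes with the largest limits, 9430069I07Rik alone shared exon bases with a gene that had counts.

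**Figure D4:**
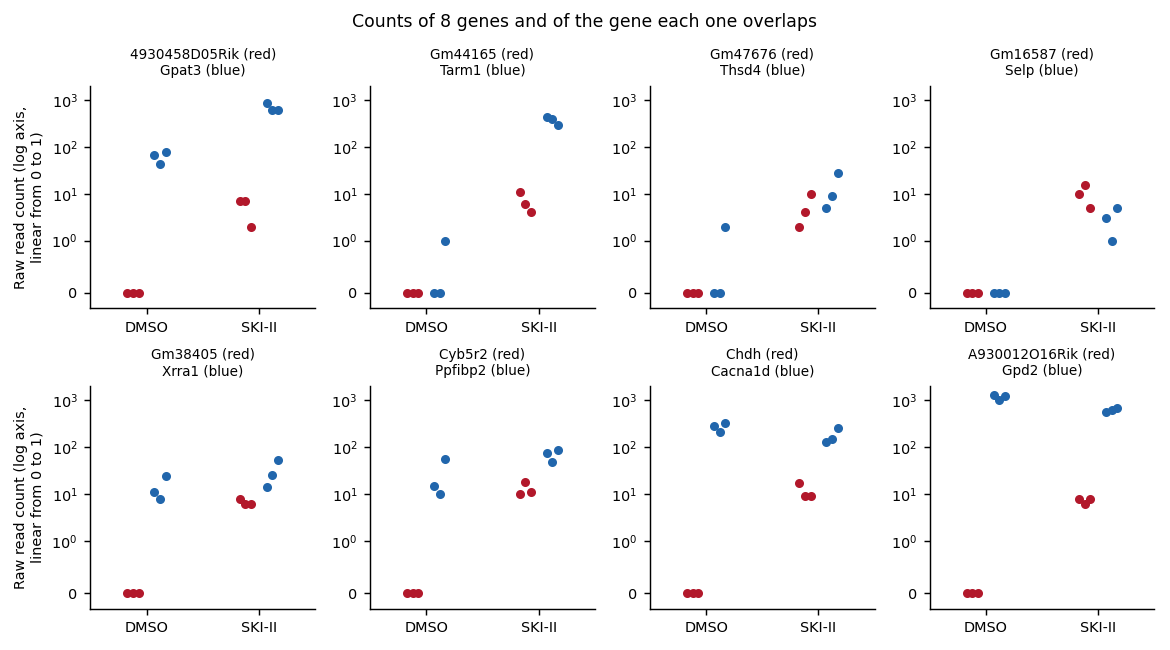
Raw read counts (log axis, linear from 0 to 1) of 8 of the 50 genes (red) and of the gene that each overlaps (blue) in the 3 DMSO and the 3 SKI-II libraries. Gpat3 and Tarm1 are far above their partners with SKI-II, and Cacna1d and Gpd2 are lower with SKI-II than with DMSO.

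Neighbouring genes did not as a rule move with the 50. Within 50000 bases of 32 of them lay 68 tested genes, of which 13 (19.1%) were higher and 10 (14.7%) lower with SKI-II, close to the 18.4% and 19.7% of all tested genes. Their median log2 fold change was 0.03, and that of all tested genes 0.00. Beside Dnaic2, Btbd17 rose from 11, 3 and 3 counts to 65, 96 and 72 (log2 fold change 3.61 ± 0.49, 4.41 without DMSO replicate 1, adjusted p = 0.000298, edgeR). Beside Klf15, Aldh1l1, a folate enzyme, went the other way, from 12, 17 and 18 counts to 0, 0 and 1 (-5.27 ± 1.43, -7.02 without SKI-II replicate 3, adjusted p = 0.000735, edgeR). Only F5 and Gm16587 lay within 50000 bases of each other, 5472 bases apart. Selp, for P-selectin, overlaps Gm16587 and ends 1812 bases before F5, and had 0 with DMSO and 3, 1 and 5 counts with SKI-II. Around Olfr432 the receptors Olfr433 (5, 5 and 0), Olfr430 (3, 2 and 3) and Olfr427 (5, 1 and 7) also had 0 with DMSO, while Olfr429 had 0, 2 and 0 with DMSO and 1, 0 and 4 with SKI-II. Around Olfr456 the receptors Olfr455, Olfr457 and Olfr458 had at most 1 count in all. Btbd17, Aldh1l1 and these neighbours were named after their values were seen. The Mpo gene, 2015 bases beyond Lpo and for a related peroxidase, had 1 count in all, in a DMSO library, and Slc47a1, 541 bases from Slc47a2, had none.

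Relatives by name were silent in some families and active in others. Of the 4 other somatostatin receptor genes, Sstr3 alone had SKI-II counts (4, 0 and 0), and 12 of 13 Bpif relatives of Bpifc were at 0 in all libraries. All 8 other Cyp3a genes were at 0. Among 1092 odorant receptor genes other than Olfr432, 1023 had no count in any library and 30, Olfr456 included, had 0 with DMSO and some with SKI-II. Others had counts with DMSO and 0 with SKI-II, such as Olfr1352 (0, 0 and 3) and Olfr1420 (2, 0 and 1). Of all 49315 genes, 2546 had counts with SKI-II only and 1766 with DMSO only. Apart from Olfr456, 6 of the odorant receptor genes were tested, of which 2 were higher and 0 lower, against 18.4% and 19.7% of all tested genes. Olfr99 had 16, 14 and 7 counts with DMSO, then 36, 51 and 32 with SKI-II (log2 fold change 1.52 ± 0.44, adjusted p = 0.0197, edgeR), a call that was lost when DMSO replicate 3 or either of the first 2 SKI-II replicates was left out (adjusted p up to 0.0846 over the alternatives). Olfr56 had 5, 6 and 11, then 10, 20 and 46 (1.55 ± 0.56, 0.96 without SKI-II replicate 3, adjusted p = 0.0457, edgeR), a call lost in 6 of 12 alternatives (adjusted p up to 0.204). Gsdme, a gasdermin that caspases cut, rose by 1.19 ± 0.17 (adjusted p = 0.000539, edgeR), while Gsdmd, the main gasdermin of macrophages, stood at -0.25 ± 0.14 (adjusted p = 0.197, edgeR). Il1rn, the antagonist that blocks Il1r1, fell by 1.81 on the log2 scale (SE 0.13, adjusted p = 1.56e-05, edgeR), from 2196, 1528 and 1797 counts to 552, 518 and 680. The co-receptor Il1rap stood at -0.41 ± 0.16 (adjusted p = 0.0721, edgeR). Of 11 tested Klf genes, 6 were higher and 2 lower, where 18.4% and 19.7% of all tested genes were. Klf2, a factor that keeps macrophages quiet, rose most of these (3.96 ± 0.54, adjusted p = 0.000546, edgeR). Of 4 tested Cyb5r genes, 1 was higher and 1 lower (18.4% and 19.7% of all tested genes). Cyb5r1 rose by 2.04 ± 0.22 (adjusted p = 0.00015, edgeR), and Cyb5r3 stood at -0.34 ± 0.12 (adjusted p = 0.0468, edgeR). Of 21 tested Taf genes, 2 were higher and 5 lower (18.4% and 19.7% of all tested genes). Taf7, the gene that Taf7l stands in for in germ cells, stood at 0.89 ± 0.30 (adjusted p = 0.0413, edgeR), a call that 6 of 12 alternatives lost, 5 of them with 1 library left out (adjusted p up to 0.136).

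All 10 macrophage markers were expressed in both groups. Csf1r, the receptor for the macrophage growth factor, had 18037, 13175 and 16682 counts with DMSO and 12858, 17899 and 18774 with SKI-II. Of the 10, Cd14 and Fcgr1 rose, Adgre1, Itgam and Lyz2 fell, and 5 were not called, shares of 20% and 30% beside 18.4% and 19.7% of all tested genes. The defining markers of 15 other cell types, 89 genes that include neurons, glia, hepatocytes, epithelial cells and germ cells, held none of the 50 genes. Of these markers, 40 were at 0 in all libraries, and 73 had fewer than 10 counts over the DMSO libraries. With 0 in DMSO, 9 had some counts with SKI-II, at most 11 over 3 libraries (Pdgfra, with 9, 1 and 1). Of all 49315 genes, 2546 had 0 with DMSO and some with SKI-II. Some markers went the other way, such as Map2 (10, 8 and 6 counts with DMSO) and Siglech (12, 3 and 3). Both were at 0 in every SKI-II library and met the rule turned round. Hepatocyte markers summed to 0 normalised counts in every DMSO library and 0 to 0.954 in the SKI-II libraries, and neuron markers to 12.9 to 19.0 and 8.15 to 12.4. The endothelial list was higher with SKI-II, at 304 to 432 and 747 to 1854, through Vwf, the von Willebrand factor, which rose by 1.83 in log2 (adjusted p = 0.00119, edgeR). The T cell list, at 97.3 to 116 and 181 to 240, was carried by the kinase Lck, which rose by 0.97 (adjusted p = 0.00412, edgeR). The dendritic cell list was lower, at 68.2 to 96.2 and 34.4 to 53.8. Its tested gene, Zbtb46, stood at -0.84 (adjusted p = 0.0451, edgeR), a call lost in 7 of 12 alternatives (adjusted p up to 0.151). The glia list, at 1869 to 2324 and 1756 to 2038, was carried by Mbp, which was not called (adjusted p = 0.415, edgeR). The part of such cells in the 50 genes was not tested.

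**Figure D5:**
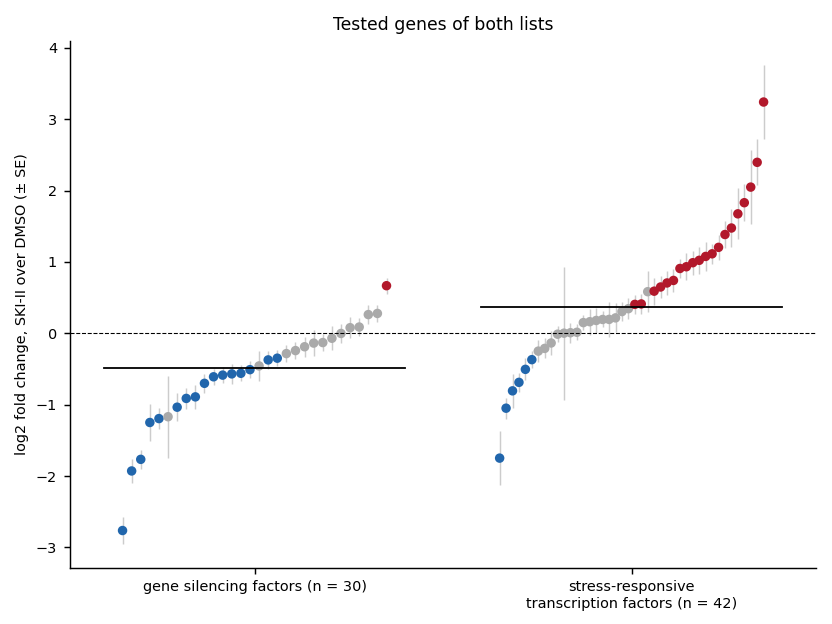
Fitted log2 fold change (SKI-II over DMSO, ± SE) of the 30 tested gene silencing factors and the 42 tested stress-responsive transcription factors, each list in order of value, with blue for lower, red for higher and grey for genes that missed an adjusted p of 0.05. Black lines mark the medians, -0.48 and 0.38.

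Silent genes are commonly held off by chromatin and switched on by transcription factors, and lists of both kinds of regulator were counted in the same fit. Both lists were chosen with earlier results of these data known, so their shares below are a description. Of 30 gene silencing factors, all tested, 16 were lower, 1 was higher and 13 were not called, that is 53.3% lower and 3.33% higher against 19.7% and 18.4% of all tested genes. The median log2 fold change was -0.48, against 0.00 over all tested genes. Dnmt1, which copies DNA methylation at replication, had 10961, 8205 and 8367 counts with DMSO and 2580, 3003 and 3517 with SKI-II, and fell by 1.77 on the log2 scale (SE 0.13, adjusted p = 1.8e-05, edgeR). Uhrf1, which brings Dnmt1 to newly copied DNA, had 3318, 2006 and 2223 and then 305, 511 and 422, and fell by 2.76 (SE 0.18, adjusted p = 1.28e-05, edgeR). The groups did not overlap in either gene. Suv39h1, which sets a repressive histone mark, fell by 1.93, Cbx5 and Cbx3, heterochromatin proteins that read it, by 1.25 and 1.19, and Ezh2, the enzyme of the Polycomb repressor, by 0.70 (adjusted p of 4.7e-05, 0.00439, 0.000219 and 0.00229, edgeR). Bmi1, also of Polycomb, rose by 0.67 (adjusted p = 0.00156, edgeR). Several of these genes, Dnmt1, Uhrf1 and Ezh2 among them, are also known to follow the cell cycle. The part of any of these regulators in the 50 genes was not tested.

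Of 42 stress-responsive transcription factors, 20 (47.6%) were higher, 6 (14.3%) were lower and 16 were not called, against 18.4% higher and 19.7% lower of all tested genes. The median log2 fold change was 0.38. Among those that can bind the AP-1 word, Fosl1 rose by 2.40 ± 0.32 (adjusted p = 0.000479, edgeR), Fosb by 2.05 ± 0.52 (adjusted p = 0.0113, edgeR, but 0.0551 without SKI-II replicate 2) and Fos by 1.83 ± 0.26 (adjusted p = 0.000535, edgeR). Fosl1 had 158, 69 and 93 counts with DMSO and 646, 749 and 400 with SKI-II, and the groups did not overlap. Ddit3 and Atf3, of the stress response to misfolded protein and amino acid lack, rose by 1.67 ± 0.36 and 1.48 ± 0.26 (adjusted p of 0.00552 and 0.00204, edgeR). Egr2 fell by 1.75 on the log2 scale (SE 0.37, adjusted p = 0.00497, edgeR), and Tfeb, a regulator of lysosome genes, by 1.05 (SE 0.15, adjusted p = 0.000541, edgeR). The number of lower stress factors was 3 without SKI-II replicate 2. The part of any of these stress factors in the genes switched on with SKI-II was not tested, nor was their binding to the AP-1 word.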

How the data were processed

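RNA of RAW264.7 cells was measured in 3 SKI-II and 3 DMSO libraries, grouped by their labels. Per the submitters' processing notes, reads were trimmed with Trimmomatic 0.36, mapped with STAR 2.5.2b and counted with featureCounts of Subread 1.5.2. The table used here holds the raw read counts per Ensembl gene that the authors deposited. Normalised values, which the study also names, were not used here. The authors' comparison used DESeq2. For the genome build, annotation release and strandedness no source used here gives a value. GENCODE M21 (GRCm38) named 48970 of the 49315 genes. The start-site and microRNA sequences are from RefSeq (GRCm38.p6).

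The genes and lists were chosen with earlier results of these data known. Named were the 12 genes with the largest limits, the first 3 of each class and tissue, those near the threshold, overlapping genes or neighbours within 50000 bases, genes with at least 60% of their counts in 1 library, relatives by symbol, and members of the marker and regulator lists. Library totals were 12495957 to 20050677 counts. Lower limits use 3 counts over the 3 DMSO libraries and TMM-scaled library sizes, take the SKI-II sum as observed and cover counting error only. Normalised counts are scaled to the mean scaled size. All genes were fitted with edgeR 4.0.16 (TMM, filterByExpr with a minimum count of 10 and total of 15, quasi-likelihood test, Benjamini-Hochberg adjustment) in R 4.3.3. Alternatives were DESeq2 1.42.0, limma-voom 3.58.1, other scalings and filters, other thresholds of the rule, the replicate block, each library left out and, added after the data were seen, a Poisson bound on the SKI-II counts. No pair of libraries of a group agreed within sampling noise, and each was counted as 1 replicate. This check cannot tell separate cultures from separate preparations of 1 culture. On simulated counts for this comparison, edgeR recovered 99% of 200 genes changed by a log2 fold change of 2 over 11689 genes, with 7 false calls. Plots were made in matplotlib 3.10.9.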

Additional observations from a re-analysis of the deposited data

How the results depend on the processing

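The number of genes at 0 with DMSO and on with SKI-II depended on the thresholds. It was 50 as reported, 24 with a minimum of 30 counts, 29 with at least 5 counts in each SKI-II library and 93 with at most 1 DMSO count, and 71 with a minimum of 10 counts and 51 with at least 1 count in each SKI-II library. Leaving out 1 library gave 27 (without SKI-II replicate 1) to 82 (without DMSO replicate 1) genes. The median lower limit, 7.59-fold, was 2.53-fold with 3 counts allowed in each DMSO library, which divides every limit by the same factor, 4.94-fold with the exact 95% Poisson lower bound of the SKI-II counts (chosen after seeing the data, and over 1.5 times lower in 26 genes), and 4.83-fold (without DMSO replicate 1) to 9.48-fold (without SKI-II replicate 3) with 1 library left out. Fewer DMSO libraries lower the limit by construction. RLE scaling and unscaled library sizes moved no limit by over 1.5 times. Without SKI-II replicate 1, 12 single limits moved by over 1.5 times, to 58.9-fold (Sstr5), 39.8 (Bpifc), 19.5 (Crhbp), 11.2 (Gsdma), 11.6 (Il1r1), 4.98 (Ptprt), 4.15 (Magee1 and Gm44165), 3.73 (Tmem179), 3.32 (Mdfi), 1.66 (Tspan15) and 2.90 (Mir27a). Without replicate 2 Klf15 moved to 3.56, Gm20553 to 2.67 and Gm36435 to 3.11, and without replicate 3 Sstr5 to 163 and Gm47676 to 2.92. The genes called higher over all tested genes numbered 2255, 1016 with a log2 fold change above 1 as well, 2366 in DESeq2, 2249 in limma-voom, 2619 without the filter, and 1507 (without DMSO replicate 2) to 2227 (without SKI-II replicate 3) with 1 library left out. The replicate numbers pair the libraries only by number. Same-numbered libraries deviated together with correlations of 0.246, 0.00994 and 0.458, and DMSO replicate 1 correlated best with SKI-II replicate 2. With the replicate block 2765 genes were called higher. With 15 to 691 counts a gene, counting error limits the order of neighbouring genes, and every limit under 10-fold rests on 30 counts or fewer.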
